A study of Canis lupus familiaris with 2 samples.

Results

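The genes that carry glucose, break it down to pyruvate and lactate and hold energy in reserve were compared between rods, cones, Müller glia and the other cell classes of canine neuroretina. The set was chosen by name, with earlier results of these data known, and held 38 genes. Of these, 28 are listed by name in the counts of both dogs, among 15224 gene names common to both, and these 28 are the members. They are 6 carriers or partners of carriers, 13 enzymes of glycolysis and lactate formation, 2 glycogen phosphorylases and 7 other genes. These 7 are genes of the control of glycolysis and of pyruvate entry, with *BNIP3*, a gene of mitochondrial clearance, placed among them. A further 7 genes are listed by name in N350 only (*ALDOA*, *PGAM1*, *PKM*, *LDHA*, *NXNL1*, *MPC1* and *PDHB*), 2 in N354 only (*PDHA1* and *PDK3*), and *CKB*, the brain type of creatine kinase, in neither. The members therefore hold no gene of the creatine system.

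Retinal punches came from 2 male dogs of normal genotype aged 40 weeks, N350 and N354, with no treatment, and the breed is not given in the sources used here. Each punch was dissociated and sequenced in a droplet assay that reads the 3' end of each mRNA and counts every molecule once by its unique molecular identifier (UMI). From N350 came 8900 cells, at a median depth of 1298 UMIs, and from N354 4392 cells, at 1204.5. Only 6 cell barcodes were shared between the dogs.

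Photoreceptors are known for turning much of their glucose into lactate even when oxygen is plentiful, a habit called aerobic glycolysis. Glucose enters through glucose carriers such as GLUT1 (*SLC2A1*), is trapped in the cell by a hexokinase and passes along the glycolytic chain to pyruvate, which lactate dehydrogenase turns into lactate or which enters mitochondria through the pyruvate carrier. Lactate crosses membranes through monocarboxylate carriers, which need a partner protein such as basigin (*BSG*) to reach the surface. Several steps have isozymes encoded by different genes, and cell types differ in which of them they use.

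Cells were assigned to classes by the raw UMIs of marker genes, none of them a member, and cells that met the gates of more than 1 class were left out. Rods numbered 5380 cells in N350 and 3003 in N354, cones 278 and 170, Müller glia 1222 and 493, bipolar cells 307 and 248, amacrine cells 229 and 37, horizontal cells 80 and 11, and astrocytes 55 and 40. Where a class is called highest or lowest, it is among these 7 classes unless fewer are named. Levels are UMIs of a gene per 10000 of all UMIs, taken over all cells of a class from the same dog, and brackets hold exact 95% intervals, which cover counting error only. A level is a share of the UMIs of a class and does not give the amount per cell. The rod genes *NRL*, *PDE6G* and *CNGB1*, which the gate did not use, together stood in Müller glia at 5.10% of their rod level in N350 and 2.93% in N354, and in cones at 6.43% and 2.81%. *VIM*, *CLU* and *APOE* stood in rods at 5.43% and 1.51% of their level in Müller glia, and in cones at 2.23% and 0.889%. These shares are the carry-over, the level at which a gene of another class is found in a class that should lack it. The median cell held 1063.5 and 1014 UMIs in rods, 5266 and 3382 in cones and 5144 and 5772 in Müller glia, and its median share of mitochondrial UMIs was 5.23% and 6.16%, 7.71% and 11.7%, and 6.82% and 10.1%. Markers of retinal pigment epithelium were near 0, with at most 2 UMIs of *RPE65* and 1 of *TTR* in any of these classes.

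The counts of the dogs were made on different gene lists, so a level of N350 is not compared with one of N354. Over 24 members in rods the level of N350 ran from 0.500 times that of N354 for *HK1* to 15.7 times for *BSG*, and dog and gene list cannot be told apart. Classes were compared within dogs, by edgeR's quasi-likelihood test on UMIs summed per dog and class with the dog as block, and each adjusted p is from that test with Benjamini-Hochberg adjustment over 11532 genes. Its fold changes are relative to the bulk of genes (TMM scaling), which is not the scale of the levels. On total UMIs instead, the median log2 fold change of all genes moves by -0.47 for Müller glia over rods, -0.43 for Müller glia over cones and -0.04 for cones over rods. With the dog as block, the p-values rest in part on how far differences between the fitted classes vary between 2 dogs. The fitted classes were rods, cones, Müller glia and bipolar cells. A shift of all classes of a dog is not part of that spread. The fit also draws the spread of each gene toward that of other genes. A small p-value thus does not rest on the 2 dogs and that gene alone. Horizontal cells, amacrine cells and astrocytes were too few for the test, and their levels are a description.

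The 28 members together took about 1 in every 100 UMIs of a photoreceptor and were most abundant in horizontal cells. The glycolytic genes *PKM*, *ALDOA*, *PGAM1* and *LDHA*, listed by name in N350 only, are not in this sum. In N350 each had a lower level in Müller glia than in rods, with *PKM* at 34.0 in rods, 30.5 in cones and 13.7 in Müller glia. The sums and their order therefore hold for the members and not for glycolysis as a whole. In rods their summed level was 112.4 (111.6 to 113.2) per 10000 UMIs in N350 and 88.7 (87.7 to 89.7) in N354. In cones it was 120.7 (118.9 to 122.6) and 94.97 (92.5 to 97.4), and in Müller glia 145.1 (144.2 to 145.9) and 111.9 (110.7 to 113.1). Thus the order rods, cones, Müller glia was the same in each dog, with intervals that did not overlap within a dog. The place of Müller glia in this order depended on *ENO1*, as given below. Bipolar cells had the lowest sum of the classes with at least 20 cells in each dog, at 87.5 and 59.8, and amacrine cells had 195.9 and 152.9. Horizontal cells, with 11 cells in N354, had 372.3 and 330.5. As a mean over dogs the sum was 100.5 ± 16.7 (SD, n = 2) in rods, 107.9 ± 18.2 in cones, 128.5 ± 23.5 in Müller glia and 73.7 ± 19.6 in bipolar cells. Rods, cones and Müller glia overlapped in their ranges over dogs while their order within each dog was the same, and bipolar cells were the lowest of these classes in each dog.

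**Figure D1:**
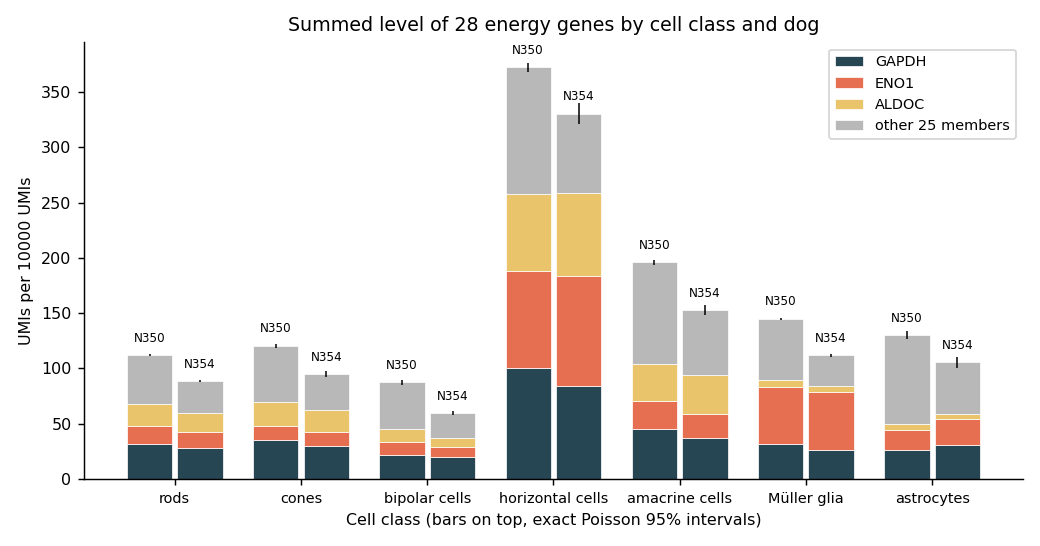
Summed level of the 28 members in UMIs per 10000 UMIs (y axis) by cell class and dog (x axis), stacked as *GAPDH*, *ENO1*, *ALDOC* and the other 25 members, with exact Poisson 95% intervals of the sum. Horizontal cells stand highest in each dog at 372.3 and 330.5, and *ENO1* fills a larger part of the Müller glia bars than of the rod bars.

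A few genes made up most of the sum. *GAPDH*, which encodes glyceraldehyde phosphate dehydrogenase, took 28.2% of the sum in the rods of N350 and 32.2% in those of N354, *ALDOC* took 17.3% and 19.5%, and *ENO1* took 14.9% and 15.5%. In Müller glia *ENO1* alone took 35.3% and 46.4%, while *ALDOC* took 4.50% and 4.78%. The classes thus differed in the genes that made up the sum. Without *GAPDH* the sum was 80.7 and 60.2 in rods, 85.5 and 64.8 in cones and 113.2 and 85.4 in Müller glia. *ENO1* had a level of 51.2 and 51.9 in Müller glia, against 16.7 and 13.8 in rods and 13.1 and 12.1 in cones. In each dog these gaps were wider than those between the sums of all members. Without *ENO1* the sum of Müller glia therefore falls below those of rods and cones.

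Against rods, 12 members were higher in Müller glia, 6 were lower and 10 did not pass the test. Over all genes 30.2% were called higher and 27.1% lower, so the shares of members are read against many calls. The median log2 fold change was 0.52 over the members and -0.03 over all genes. Of the 12, 11 had the higher level in Müller glia in each dog, and all 6 lower members had the lower level in each dog. On total UMIs, 11 were higher and 10 lower, with *GPI*, *PFKL*, *PGK1* and *PYGB* added to those lower. Of all 11532 genes 2736 were higher and 4697 lower on that scale, in place of 3488 and 3125. Among all genes the share of calls that were higher fell from 52.7% to 36.8%. The added members are thus set against more lower calls among all genes. Without the dog in the model, 2 members were higher (*SLC2A1* and *ENO1*) and 2 lower (*HK2* and *PFKP*), where 862 and 462 of all genes were called.

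In cones, 6 members were higher than in rods and 6 were lower, where 10.2% and 9.00% of all genes were called, and 16 did not pass the test. The median log2 fold change was 0.06 over the members, or 0.12 over the 27 without *SLC16A7*, which had no UMI in cones, and -0.19 over all genes. Without the dog in the model none of the 12 was called by edgeR, where 60 of all genes were called higher and 22 lower. In that fit 3 members were higher and 2 lower at an unadjusted p under 0.05, with no count over all genes given. DESeq2 with the dog as block called 7 members higher and 2 lower, and 1110 and 623 of all genes. The comparisons share the sums of rods and cones. Against cones, 9 members were higher in Müller glia and 8 lower, where 23.9% and 20.6% of all genes were called. On total UMIs these were 6 and 12, with *PFKL*, *PFKP*, *PGK1* and *LDHB* added to those lower. Of all genes 2072 were higher and 3694 lower on that scale, in place of 2758 and 2373. Among all genes the share of calls that were higher fell from 53.8% to 35.9%. Without the dog in the model, 2 members were higher (*SLC2A1* and *ENO1*) and none lower by edgeR, where 606 and 401 of all genes were called. In that fit 5 members were lower at an unadjusted p under 0.05, with no count over all genes given. DESeq2 with the block called 7 members lower, and 1726 of all genes. Apart from the members named here as called without the dog in the model, every call of a member was lost in that fit. This holds in each comparison, also where it is not repeated below.

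**Figure D2:**
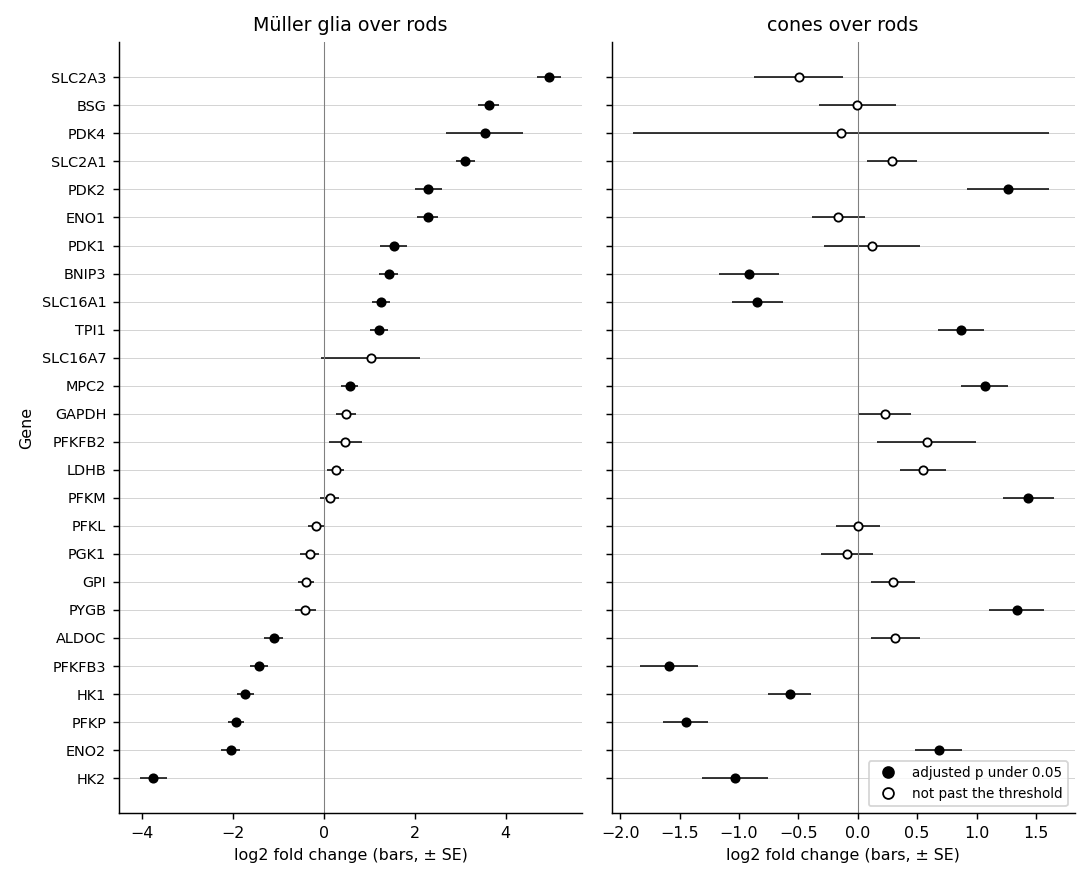
Log2 fold change of each member with at least 10 UMIs in each dog (x axis) for Müller glia over rods (left) and cones over rods (right), ordered by the former, with bars of ± SE and filled points for an adjusted p under 0.05. *SLC2A3*, *BSG*, *PDK4* and *SLC2A1* stand at the top of the left panel and *HK2* at its foot, and *SLC16A7* has no point on the right because cones had no UMI of it.

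Of the 7 classes, the glucose carriers were highest in glia. *SLC2A1*, the gene of the main glucose carrier of the blood-retina barrier and of retinal cells, had a level of 0.982 (0.908 to 1.06) in rods of N350 and 1.22 (1.11 to 1.34) in those of N354, and of 0.993 and 1.55 in cones. In Müller glia it had 5.73 (5.56 to 5.90) and 7.53 (7.23 to 7.85). The level was thus 5.84 times that of rods in N350 and 6.17 times in N354, with a log2 fold change of 3.11 ± 0.21 (SE, edgeR adjusted p = 4.9e-08). This call held under each of 8 alternatives that gave a test (adjusted p at most 0.0148). Cones and rods did not pass the test (log2 fold change 0.29 ± 0.21, edgeR adjusted p = 0.381). The carry-over of *SLC2A1* from Müller glia comes to 0.311 and 0.114 in rods. The rod levels stood above it, and it was not taken off in the ratios to rods. Astrocytes stood at 1.58 and 1.81, at 0.277 and 0.240 times the level of Müller glia. Bipolar, horizontal and amacrine cells all stood below rods, from 0.169 to 0.757.

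*SLC2A3*, which encodes the glucose carrier GLUT3 that is best known from neurons, was likewise high in the glia. It had 4.76 (4.61 to 4.92) in Müller glia of N350 and 1.11 (0.995 to 1.24) in those of N354, and 3.01 and 1.21 in astrocytes. Rods had 0.222 and 0.05003, where the carry-over from Müller glia comes to 0.259 and 0.0167, so that the rod level of N350 was not above it. Cones had 0.175 in N350 and no UMI in N354. In Müller glia over rods the log2 fold change was 4.96 ± 0.27 (edgeR adjusted p = 1.8e-08), and of Müller glia over cones 5.46 ± 0.33 (edgeR adjusted p = 4.9e-08). Neither call held without the dog in the model. Over the alternatives the adjusted p ran up to 0.0796 and 0.0806 from 3.7e-26 and 2.2e-21.

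Of the monocarboxylate carriers, *SLC16A1* (MCT1) was found in rods, cones, Müller glia and astrocytes and was scarce in the inner neurons. Its level was 3.05 (2.92 to 3.19) in rods of N350 and 1.61 (1.48 to 1.75) in those of N354, and 1.81 and 0.736 in cones. Müller glia had 6.32 (6.15 to 6.50) and 2.14 (1.98 to 2.31), and astrocytes had 6.40 and 2.54. Bipolar, horizontal and amacrine cells had 0.0688 to 0.423. The order cones, rods, Müller glia was the same in each dog, and the intervals of Müller glia and astrocytes overlapped. Müller glia were higher than rods by a log2 fold change of 1.26 ± 0.20 (edgeR adjusted p = 9.8e-05), cones were lower than rods by -0.85 ± 0.21 (edgeR adjusted p = 0.0129), and Müller glia were higher than cones by 2.10 ± 0.22 (edgeR adjusted p = 3.1e-06). The rod level stood above the carry-over from Müller glia, which comes to 0.343 and 0.0322. DESeq2 did not call the difference of cones and rods, and none of the 3 differences passed without the dog in the model. Over the alternatives the adjusted p ran from 1.1e-09 to 0.422, from 0.00261 to 0.876 and from 6.8e-13 to 0.136.

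The other monocarboxylate carriers among the members, *SLC16A7* and *SLC16A3*, were close to the limit of detection in photoreceptors and Müller glia. *SLC16A6*, a gene of the list of other carriers, was not, and is given below with that list. *SLC16A7* (MCT2, known for its high affinity for lactate and pyruvate in neurons) had 3 UMIs in the rods of N350 and 1 in those of N354, 3 and 3 in Müller glia and none in cones. Its highest levels among the classes compared were in amacrine cells, at 0.258 (0.187 to 0.348) and 0.192 (0.0624 to 0.448), with horizontal cells at 0.193 and 0.138. *SLC16A3* (MCT4, known for lactate export) had 10 UMIs in rods and 17 in Müller glia of N350, and none in either class of N354, while amacrine cells of N350 had 47. A difference between photoreceptors and Müller glia in these carriers was not detectable at this depth.

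*BSG*, the partner of *SLC16A1* at the membrane, was likewise highest in Müller glia among the 7 classes. It had 1.58 (1.48 to 1.67) in rods, 1.55 (1.35 to 1.76) in cones and 12.4 (12.2 to 12.7) in Müller glia of N350, and 0.1001, 0.0654 and 1.005 in those of N354. The carry-over from Müller glia comes to 0.676 and 0.0151 in rods. The rod levels stood above it, and it was not taken off in the ratios. Rods and cones did not differ beyond their intervals in either dog, and Müller glia had 7.89 times (7.41 to 8.42) and 10.0 times (7.09 to 14.6) the rod level. As a log2 fold change this was 3.63 ± 0.23 (edgeR adjusted p = 2.9e-08). The call was lost without the dog in the model, and over the alternatives the adjusted p ran from 3.4e-32 to 0.301. Bipolar, horizontal and amacrine cells of N350 stood between, at 3.0 to 5.0. Embigin (*EMB*), another partner of monocarboxylate carriers and a gene of the list of other carriers, had the opposite order. Its level was 9.10 and 14.6 in rods, 0.679 and 0.818 in cones and 0.438 and 0.570 in Müller glia. The carry-over from rods comes to 0.586 and 0.409 in cones and to 0.464 and 0.427 in Müller glia. In both classes the interval of N350 did not lie above it, and that of N354 did. Müller glia over rods had a log2 fold change of -4.01 ± 0.30 (edgeR adjusted p = 1.2e-07), and cones over rods -3.85 ± 0.32 (edgeR adjusted p = 1.3e-06).

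**Figure D3:**
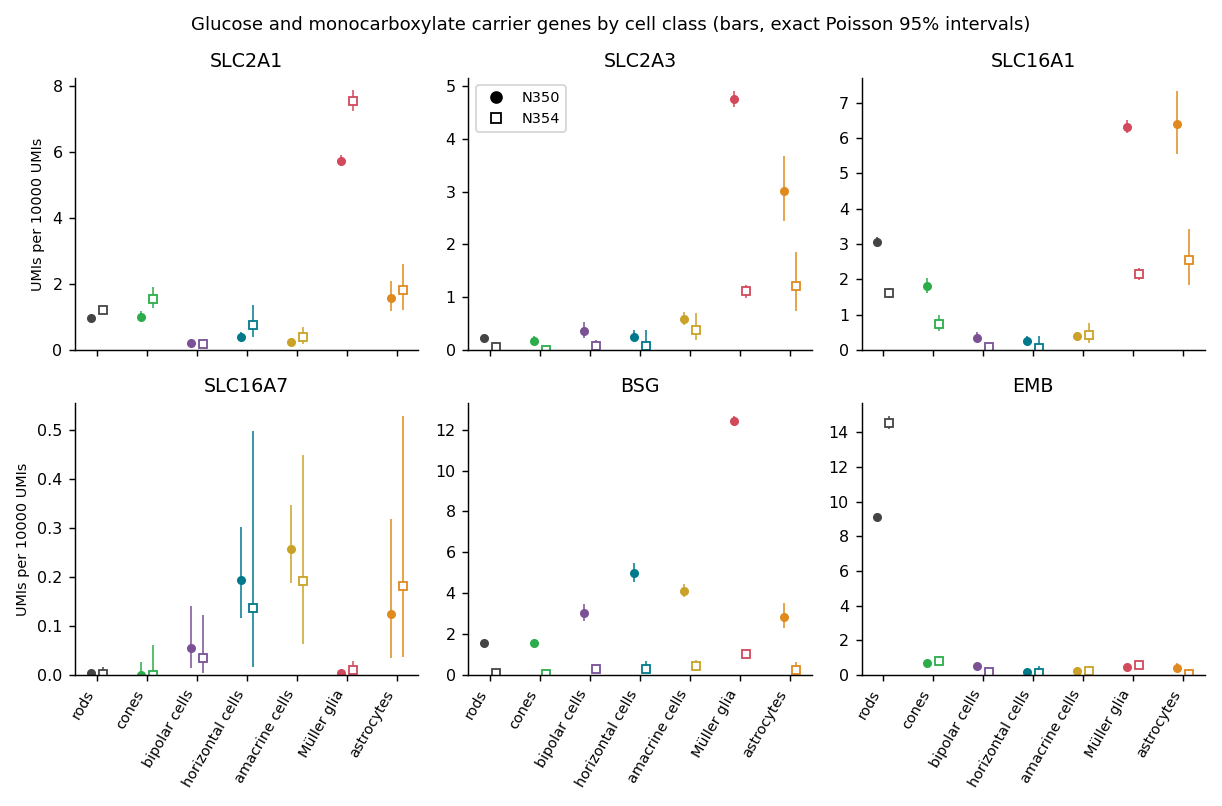
Levels of the glucose and monocarboxylate carriers and their partners *BSG* and *EMB* in UMIs per 10000 UMIs (y axis) in 7 cell classes (x axis) of N350 (filled circles) and N354 (open squares), with exact Poisson 95% intervals. Of the classes shown *SLC2A1* and *BSG* are highest in Müller glia, *SLC16A1* is shared by Müller glia and astrocytes with lower levels in photoreceptors, and *EMB* is found mostly in rods, at 9.10 and 14.6.

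*NXNL1*, which encodes rod-derived cone viability factor, a secreted protein that is known to bind basigin on cones, is listed by name in N350 only. There it had 0.350 (0.307 to 0.398) in rods, 0.140 (0.0855 to 0.216) in cones and 0.0140 (0.00701 to 0.0251) in Müller glia. The carry-over from rods comes to 0.0225 in cones and 0.0179 in Müller glia, so the cone level stood above it and that of Müller glia did not. With 1 dog, no test was made.

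Hexokinases hold glucose in the cell by phosphorylation, and *HK1* and *HK2* were higher in photoreceptors than in Müller glia. *HK1* had a level of 2.99 (2.86 to 3.12) in rods of N350 and 5.97 (5.72 to 6.23) in those of N354, 2.06 and 3.34 in cones, and 0.621 and 1.26 in Müller glia. Müller glia were lower than rods by a log2 fold change of -1.73 ± 0.18 (edgeR adjusted p = 2.3e-06) and lower than cones by -1.16 ± 0.18 (edgeR adjusted p = 0.000165). Both calls were lost without the dog in the model, where the edgeR adjusted p was 0.141 and 0.344. Cones were lower than rods by -0.57 ± 0.18 (edgeR adjusted p = 0.0401), a call that DESeq2 did not make and that over the alternatives ran from an adjusted p of 0.0087 to 0.912. Amacrine cells had the highest level of *HK1* in each dog, at 4.67 and 8.88, followed by horizontal cells at 4.14 and 8.12, and their intervals overlapped.

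*HK2*, known as the hexokinase of photoreceptors and of tissues with strong aerobic glycolysis, was highest in rods. It had 0.821 (0.754 to 0.894) and 0.550 (0.476 to 0.633) in rods and 0.434 (0.333 to 0.556) and 0.213 (0.113 to 0.364) in cones. In Müller glia it had 0.0523 and 0.0166, where the carry-over from rods comes to 0.0419 and 0.0161 and lies within the intervals. Rods, cones and Müller glia thus stood in that order in each dog, and *HK2* was the 1 member that was highest in rods in each dog among the 6 classes with at least 20 cells in each. The log2 fold change was -3.76 ± 0.30 for Müller glia over rods (edgeR adjusted p = 1.6e-07) and -1.03 ± 0.28 for cones over rods (edgeR adjusted p = 0.0178). The former held under all 8 alternatives that gave a test. The latter did not pass by DESeq2 or without the dog in the model, with an adjusted p from 0.00497 to 0.778 over the alternatives.

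Set against each other, *HK1* gave most of the UMIs of this pair in all classes described, and the part of *HK2* was largest in rods. *HK1* was 78.4% (76.8 to 80.0) of the UMIs of *HK1* and *HK2* in rods of N350 and 91.6% (90.4 to 92.7) in those of N354. In cones it was 82.6% (78.3 to 86.4) and 94.0% (90.0 to 96.8), and in Müller glia 92.2% (89.6 to 94.4) and 98.7% (97.0 to 99.6). Rods and cones overlapped in each dog, and Müller glia stood above rods without overlap. Since the UMIs a gene receives depend on how its 3' end is annotated, such a share is compared between classes and not read as the amount of the enzymes. With 2 dogs an exact permutation test cannot pass the threshold, and none was made. *HKDC1*, a further hexokinase and a gene of the list of other glycolysis genes, was highest in Müller glia, at 0.922 and 0.958, with 0.311 and 0.362 in astrocytes. Rods had 0.0453 and 0.00278, and Müller glia exceeded them by 5.67 ± 0.50 (edgeR adjusted p = 4.4e-07). The carry-over from Müller glia was not set against these rod levels.

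**Figure D4:**
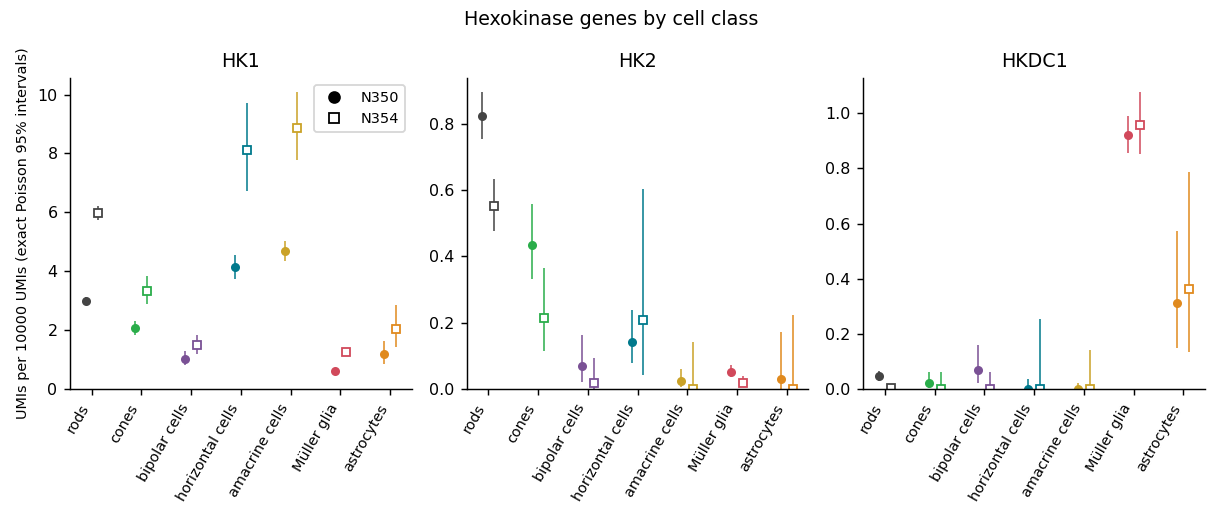
Levels of *HK1*, *HK2* and *HKDC1* in UMIs per 10000 UMIs (y axis, a scale for each panel) in 7 cell classes (x axis) of N350 (filled circles) and N354 (open squares), with exact Poisson 95% intervals. *HK1* is lowest in Müller glia and highest in amacrine cells, *HK2* is highest in rods at 0.821 and 0.550, and *HKDC1* is highest in Müller glia at 0.922 and 0.958.

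Phosphofructokinase, which commits glucose to glycolysis, is built from subunits of 3 genes, and these differed by class. *PFKP* had 2.45 and 2.25 in rods, 0.882 and 0.720 in cones and 0.453 and 0.395 in Müller glia. Rods thus exceeded cones and Müller glia in each dog, with a log2 fold change of -1.95 ± 0.18 for Müller glia over rods (edgeR adjusted p = 6.2e-07) and -1.45 ± 0.19 for cones over rods (edgeR adjusted p = 8.2e-05). *PFKM*, the muscle type, had 0.667 and 0.570 in rods, 1.52 and 1.60 in cones and 0.480 and 0.458 in Müller glia, and was higher in cones than in rods (1.44 ± 0.21, edgeR adjusted p = 0.000293). Horizontal cells held the most *PFKM*, at 8.09 (7.53 to 8.67) and 8.54 (7.10 to 10.2), 12.1 and 15.0 times the rod level. *PFKL*, the liver type, had 4.19 and 1.51 in rods, 4.09 and 1.34 in cones and 2.85 and 0.836 in Müller glia, and none of its 3 comparisons passed the test. On total UMIs it was lower in Müller glia than in rods, at -0.65, and over the alternatives the adjusted p ran from 0.00416 to 0.949.

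As shares of phosphofructokinase UMIs, *PFKP* made up 33.6% and 52.0% in rods, 13.6% and 19.6% in cones and 11.99% and 23.4% in Müller glia. *PFKM* made up 9.13% and 13.2%, 23.4% and 43.8%, and 12.7% and 27.1% in the same classes, and 60.6% and 78.0% in horizontal cells. So cones differed from rods by less *PFKP* and more *PFKM*, in each dog.

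*GPI*, the isomerase of the step after hexokinase, had 1.498 and 1.19 in rods, 1.94 and 1.18 in cones and 0.931 and 0.527 in Müller glia, and was lower in Müller glia than in cones (-0.69 ± 0.19, edgeR adjusted p = 0.00915). *ALDOC*, the brain type of aldolase, had 19.4 and 17.3 in rods, 21.4 and 20.6 in cones and 6.52 and 5.34 in Müller glia. Müller glia were lower than rods by a log2 fold change of -1.11 ± 0.21 (edgeR adjusted p = 0.000466) and lower than cones by -1.42 ± 0.21 (edgeR adjusted p = 8.9e-05), whereas rods and cones did not pass the test (edgeR adjusted p = 0.329). In N350, the dog in which *ALDOA* is listed by name, that gene had 13.1 in rods, 4.94 in cones and 5.48 in Müller glia, so that it was 40.3% (39.7 to 41.0) of aldolase UMIs in rods and 18.7% (17.5 to 20.01) in cones.

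*TPI1*, the triose phosphate isomerase gene, had 4.47 and 4.26 in rods, 7.08 and 7.69 in cones and 7.12 and 6.88 in Müller glia. It was higher than in rods in cones (0.87 ± 0.20, edgeR adjusted p = 0.0064) and in Müller glia (1.20 ± 0.19, edgeR adjusted p = 0.000132), and did not pass the test between these (edgeR adjusted p = 0.183). Under that limit on mitochondrial names, the call of *TPI1* for Müller glia over rods was lost (edgeR adjusted p = 0.396). *GAPDH* had 31.7 and 28.5 in rods, 35.2 and 30.2 in cones and 31.9 and 26.5 in Müller glia, and no comparison of it passed the test. For Müller glia over rods its log2 fold change was 0.48 ± 0.22 (edgeR adjusted p = 0.079) while its level there was 1.01 and 0.929 times that of rods, and DESeq2 called it at 0.69, with an adjusted p from 3.1e-13 to 0.994 over the alternatives. *PGK1*, of phosphoglycerate kinase, had 5.03 and 1.04, 5.55 and 0.622, and 3.05 and 0.531 in these classes and passed in no comparison. *PGAM1*, of phosphoglycerate mutase, had 4.48 in rods, 8.88 in cones and 1.89 in Müller glia of N350.

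The enolase genes differed between Müller glia and photoreceptors in opposite directions. *ENO1* had 16.7 (16.4 to 17.0) and 13.8 (13.4 to 14.2) in rods and 13.1 and 12.1 in cones, against 51.2 (50.7 to 51.7) and 51.9 (51.1 to 52.7) in Müller glia. *ENO2*, the neuronal enolase, had 7.30 and 3.002 in rods, 10.9 and 4.43 in cones and 1.42 and 0.418 in Müller glia. Müller glia over rods had a log2 fold change of 2.29 ± 0.23 for *ENO1* (edgeR adjusted p = 1.8e-06) and -2.06 ± 0.21 for *ENO2* (edgeR adjusted p = 1.6e-06). The call of *ENO1* was lost only under the limit of less than 5% of UMIs on mitochondrial names, with an adjusted p from 7.7e-47 to 0.106 over the alternatives. That limit left 21 of the 493 Müller glia of N354. *ENO2* was also higher in cones than in rods (0.68 ± 0.20, edgeR adjusted p = 0.0282). *ENO1* made up 97.3% and 99.2% of enolase UMIs in Müller glia, 69.6% and 82.1% in rods and 54.6% and 73.1% in cones, and the intervals did not overlap within a dog. Horizontal cells had the highest level of *ENO1*, at 88.4 and 99.96, and bipolar cells had 11.9 and 9.41.

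At the end of the chain, *PKM*, the gene of pyruvate kinase M, had 34.0 in rods, 30.5 in cones and 13.7 in Müller glia of N350, 20.4 in horizontal cells and 10.05 in bipolar cells. *LDHB*, the lactate dehydrogenase subunit known to favour the use of lactate, had 4.68 and 1.28 in rods, 5.93 and 1.88 in cones and 3.88 and 1.06 in Müller glia. None of its comparisons passed the test (edgeR adjusted p = 0.268 for Müller glia over rods, 0.0661 for cones over rods and 0.238 for Müller glia over cones). The 95% intervals of its level ratio of cones over rods were 1.17 to 1.37 in N350 and 1.19 to 1.81 in N354, and DESeq2 called that difference at 0.61, with an adjusted p from 0.00755 to 0.973 over the alternatives.

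*LDHA*, the subunit known to favour lactate formation, is listed by name in N350 only, so its balance with *LDHB* is a description of 1 dog. It had 5.24 (5.06 to 5.41) in rods, 4.93 (4.57 to 5.30) in cones and 4.49 (4.34 to 4.64) in Müller glia. *LDHA* made up 52.8% (51.6 to 54.0) of lactate dehydrogenase UMIs in rods, 45.4% (42.9 to 47.9) in cones and 53.7% (52.4 to 54.9) in Müller glia. Rods and Müller glia overlapped, and cones stood below both. The share was 64.3% (62.3 to 66.3) in horizontal cells, 60.9% (59.2 to 62.6) in amacrine cells, 52.4% (48.5 to 56.3) in bipolar cells and 39.4% (34.0 to 45.0) in astrocytes. In these 7 classes the share thus lay between 39.4% and 64.3%. It was higher in the few other cells of N350, at 69.6% (67.2 to 71.9) in 22 ganglion cells, 77.2% (70.8 to 82.7) in 22 vascular cells and 80.4% (66.9 to 90.2) in 12 microglia.

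**Figure D5:**
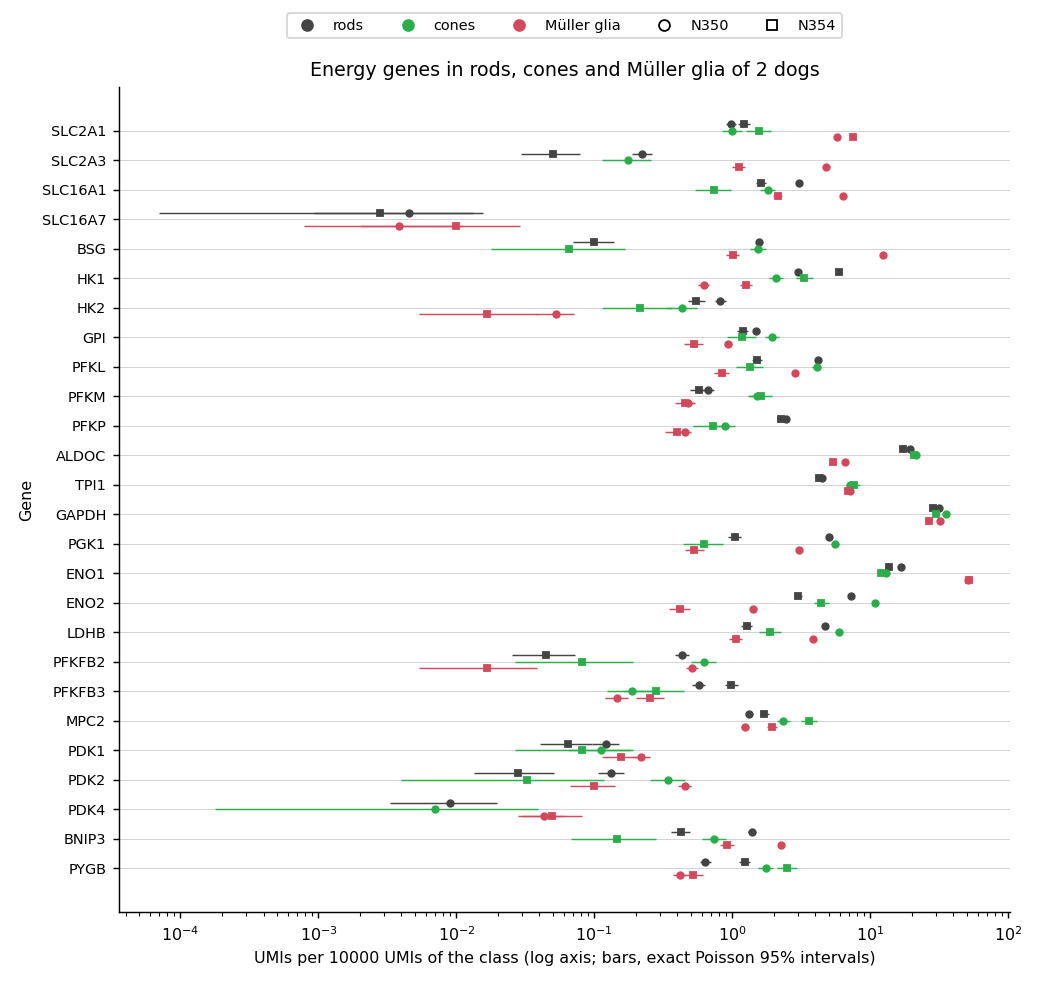
Levels of the 26 members with at least 10 UMIs in each dog (y axis) in UMIs per 10000 UMIs (x axis, log scale) in rods, cones and Müller glia, with circles for N350, squares for N354 and bars for exact Poisson 95% intervals. Levels of 0 are not drawn, *GAPDH* lies between 26.5 and 35.2 in these classes, and *ENO1* and *HK2* part Müller glia from photoreceptors in opposite directions.

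Genes that set how fast glucose is used and whether pyruvate enters mitochondria followed. *PFKFB3*, whose product raises the activator of phosphofructokinase, had 0.571 and 0.984 in rods, 0.189 and 0.278 in cones and 0.146 and 0.255 in Müller glia. It was lower than in rods in cones (-1.59 ± 0.25, edgeR adjusted p = 0.000433) and in Müller glia (-1.43 ± 0.21, edgeR adjusted p = 4.8e-05), and did not pass the test between these (edgeR adjusted p = 0.665). Astrocytes had the highest level in each dog, at 0.932 and 1.45. *PFKFB2* had 0.435 and 0.0445 in rods, 0.623 and 0.0818 in cones and 0.512 and 0.0166 in Müller glia, and passed in no comparison.

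The pyruvate carrier is made of the products of *MPC1* and *MPC2*. *MPC2* had 1.32 and 1.71 in rods, 2.35 and 3.62 in cones and 1.23 and 1.94 in Müller glia. Cones were higher than rods by a log2 fold change of 1.07 ± 0.19 (edgeR adjusted p = 0.00147), at 1.78 and 2.11 times the rod level. Müller glia were called higher than rods (0.56 ± 0.19, edgeR adjusted p = 0.0208), but their level was 0.934 times that of rods in N350 and 1.13 times in N354, and on total UMIs the call was lost, at 0.092, with an adjusted p from 0.000625 to 0.671 over the alternatives. *MPC1* had 1.15 in rods, 0.812 in cones and 1.48 in Müller glia of N350. Of the pyruvate dehydrogenase subunits, *PDHB* had 0.667 in rods, 0.658 in cones and 0.396 in Müller glia of N350, and *PDHA1* had 0.489, 0.556 and 0.269 in those of N354.

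The pyruvate dehydrogenase kinases, which switch that complex off, were scarce, and *PDK1*, *PDK2* and *PDK4* were higher in Müller glia than in rods. *PDK1* had 0.121 and 0.0639 in rods, 0.112 and 0.0818 in cones and 0.218 and 0.156 in Müller glia (Müller glia over rods 1.53 ± 0.29, edgeR adjusted p = 0.000554). *PDK2* had 0.133 and 0.0278 in rods, 0.343 and 0.0327 in cones and 0.452 and 0.0995 in Müller glia (2.30 ± 0.29, edgeR adjusted p = 1.4e-05). *PDK4* had 6 UMIs in rods and 34 in Müller glia of N350, and 0 and 15 in those of N354 (3.53 ± 0.85, edgeR adjusted p = 0.00325). Without the dog in the model none of these kinases passed, and DESeq2 did not call *PDK4*. The adjusted p over the alternatives ran up to 0.113 for *PDK1*, 0.303 for *PDK2* and 0.149 for *PDK4*, from 2e-06, 1.6e-09 and 2.4e-05. *PDK2* was also higher in cones than in rods (1.26 ± 0.34, edgeR adjusted p = 0.0194), which rests on 49 UMIs in cones of N350 and 2 in those of N354. *PDK3*, listed in N354 only, had 0.145 in rods, 0.0818 in cones and 0.0829 in Müller glia.

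*BNIP3*, a gene of mitochondrial clearance that is known to respond to low oxygen, stood apart in astrocytes. It had 41.5 (39.3 to 43.8) and 19.2 (17.2 to 21.4) in astrocytes, against 1.38 and 0.423 in rods, 0.742 and 0.147 in cones and 2.27 and 0.918 in Müller glia. The astrocyte level was 18.3 times (17.0 to 19.6) that of Müller glia in N350 and 20.9 times (17.7 to 24.7) in N354. Müller glia were higher than rods (1.42 ± 0.21, edgeR adjusted p = 6.7e-05), and cones lower than rods (-0.92 ± 0.25, edgeR adjusted p = 0.0206). The former call was lost under the limit of less than 5% of UMIs on mitochondrial names (edgeR adjusted p = 0.372) and without the dog in the model. The latter was lost with doubled gate thresholds, by DESeq2 and without the dog in the model, with an adjusted p from 0.0138 to 0.873 over the alternatives.

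Of the glycogen phosphorylases, which release glucose from glycogen, *PYGB*, the brain type, was higher in cones than in rods and Müller glia. It had 1.75 (1.54 to 1.98) and 2.50 (2.12 to 2.93) in cones, 0.639 and 1.23 in rods and 0.417 and 0.521 in Müller glia. Cones were higher than rods by a log2 fold change of 1.34 ± 0.23 (edgeR adjusted p = 0.00102), and Müller glia were lower than cones by -1.75 ± 0.24 (edgeR adjusted p = 4.1e-05). *PYGM*, the muscle type, had 1 UMI in rods and 18 in Müller glia of N350, and 0 and 3 in those of N354. It was called higher in Müller glia than in rods (4.21 ± 1.11, edgeR adjusted p = 0.00609), a call that DESeq2 did not make, with an adjusted p from 6.2e-05 to 0.171 over the alternatives, and horizontal cells of N350 had 22 UMIs.

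Leaving out the scarce *SLC16A3* and *PYGM*, 26 members had at least 10 UMIs in each dog. Across the 6 classes with at least 20 cells in each dog, the class with the highest level was the same in each dog for 20 of the 26. It was amacrine cells for 10 of these, which include *HK1*, *ALDOC*, *TPI1*, *GAPDH* and *PGK1*. It was Müller glia for 3 (*SLC2A1*, *BSG* and *ENO1*), cones for 3 (*PFKFB2*, *MPC2* and *PYGB*), astrocytes for 3 (*SLC16A1*, *PFKFB3* and *BNIP3*) and rods for 1 (*HK2*). A class counted as highest may overlap with others in its interval. In N354 *PFKFB2* had 0.0818 (0.0266 to 0.191) in cones and 0.0445 (0.0254 to 0.0722) in rods. With horizontal cells added as a seventh class, 6 members were highest there in each dog, namely *PFKM*, *ALDOC*, *GAPDH*, *PGK1*, *ENO1* and *LDHB*. Horizontal cells had the most UMIs of the classes, with a median of 13576 and 12971 per cell, and the part of this in their levels was not tested. The share of all genes that are highest in each class is not given here. These counts of highest classes therefore describe the members and are not read as particular to them.

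The remaining cells were few, and their levels are given for N350 alone as a description. In its 22 vascular cells *SLC2A1* had 30.02 (27.5 to 32.7), *SLC2A3* had 18.4 (16.4 to 20.5) and *BSG* had 22.6 (20.4 to 24.9), all above the levels of Müller glia. In its 22 ganglion cells *PYGB* had 3.93 (3.41 to 4.50), above cones, *BNIP3* had 16.2 (15.1 to 17.3), *SLC16A7* had 0.651 (0.451 to 0.910) and *SLC16A3* had 73 UMIs. The summed level of the members was 278.0 in ganglion cells and 110.6 in vascular cells. The 22 ganglion cells held 521997 UMIs at a median of 2261 per cell. Of these UMIs, 419507 came from the 9 cells with at most 10% of mitochondrial UMIs, at a median of 39963. Their levels thus rest mostly on a few large cells.

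For neighbouring pathways, all genes of a list that could be tested are counted, beside 30.2% of all genes called higher and 27.1% called lower in Müller glia than in rods. Unless DESeq2 is named, their calls are those of the edgeR fit with the dog as block and TMM scaling. Results on total UMIs or without the dog in the model are not given for genes outside the members, also not for *EMB*, *HKDC1* and *MDH1*. All 6 genes of the malate-aspartate shuttle, which carries the reducing power of glycolysis into mitochondria, were lower in Müller glia than in rods, and 5 of the 6 were higher in cones than in rods, where 10.2% of all genes were. Its aspartate aminotransferase genes had the lowest fold changes. *GOT1* had 7.08 and 8.48 in rods, 10.3 and 11.5 in cones and 0.651 and 0.594 in Müller glia (Müller glia over rods -3.10 ± 0.21, edgeR adjusted p = 4.6e-08). *GOT2* had 1.92 and 1.96, 3.39 and 2.88, and 0.388 and 0.355 in these classes (-1.85 ± 0.19, edgeR adjusted p = 2.1e-06). The median log2 fold change of the shuttle was -1.63 for Müller glia over rods and 0.75 for cones over rods.

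Of 14 genes tested of the tricarboxylic acid cycle, 1 was higher in Müller glia than in rods and 7 were lower, against 30.2% and 27.1% of all genes. *SUCLG2*, a subunit of the ligase that makes GTP, was the 1 higher gene, at 0.0378 and 0.0723 in rods and 0.283 and 0.196 in Müller glia (2.73 ± 0.39, edgeR adjusted p = 4e-05). *DLD* and *DLST*, of the oxoglutarate dehydrogenase complex, had the lowest fold changes, at -1.02 each (edgeR adjusted p = 0.000238 and 0.00409). Against cones, 11 of the 14 were lower in Müller glia, as were 20.6% of all genes.

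Glycogen genes went the other way, with 5 of 7 higher in Müller glia than in rods, against 30.2% of all genes, and none lower by edgeR (0 also at an unadjusted p under 0.05 and 0 by DESeq2). In cones, 3 of the 7 were also higher than in rods, where 10.2% of all genes were, and none was called lower by edgeR. Against cones, 5 of the 7 were higher in Müller glia, where 23.9% of all genes were. *GYG1*, of the glycogen primer glycogenin, had 0.0770 and 0.0473 in rods, 0.462 and 1.01 in cones and 1.76 and 1.28 in Müller glia (Müller glia over rods 5.06 ± 0.37, edgeR adjusted p = 9.4e-08). *PYGL*, the liver phosphorylase, had 0.0453 and 0.0167 in rods, 0.409 and 0.746 in Müller glia and 0.715 and 1.27 in astrocytes (4.46 ± 0.44, edgeR adjusted p = 1.4e-06). The phosphorylase genes thus differed by class, with *PYGB* higher in cones than in Müller glia and *PYGL* higher in Müller glia than in rods.

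Of 11 other carriers tested, 5 were higher in Müller glia than in rods, against 30.2% of all genes, and 2 were lower, a share below the 27.1% of all genes. *SLC2A10* had no UMI in rods of either dog and 47 and 10 in Müller glia, and *SLC16A9* had 4 and 0 in rods and 28 and 30 in Müller glia (4.28 ± 0.92, edgeR adjusted p = 0.00153). Beside *EMB*, the lower gene was *SLC16A6*, a carrier of ketone bodies, with 1.5 and 0.359 in rods, 0.161 and 0.0164 in cones and 0.0817 and 0.00332 in Müller glia (-4.02 ± 0.33, edgeR adjusted p = 2.5e-07). Its level in Müller glia was not above the carry-over from rods.

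Of 10 genes tested of the response to low oxygen, 5 were higher in Müller glia than in rods and 2 lower. Of all genes 30.2% and 27.1% were, so that the lower share was not above that of all genes. The list includes the factor genes *HIF1A* and *EPAS1*, and *EPAS1* was among the 5 (0.74 ± 0.29, edgeR adjusted p = 0.0419). *VEGFA*, the vascular growth factor, had 0.125 and 0.261 in rods, 1.10 and 2.31 in Müller glia and 2.45 and 8.58 in astrocytes (Müller glia over rods 3.66 ± 0.21, edgeR adjusted p = 2.2e-08), and *ANKRD37* had 0.972 and 1.21 in rods and 8.55 and 2.46 in Müller glia (2.75 ± 0.39, edgeR adjusted p = 4.5e-05). *NDRG1* had 0.175 and 0.848 in rods and 0.00638 and 0.0232 in Müller glia (-4.44 ± 0.36, edgeR adjusted p = 2.2e-07), and *ADM* had 0.805 and 0.837 in rods and 0.306 and 0.242 in Müller glia (-1.05 ± 0.27, edgeR adjusted p = 0.00481). So the list did not move one way. Of the pentose phosphate genes tested, 2 of 3 were higher in Müller glia, *TKT* (1.34 ± 0.25, edgeR adjusted p = 0.000383) and *PGD* (0.81 ± 0.27, edgeR adjusted p = 0.0192). Among 6 other glycolysis genes *HKDC1* alone was called between Müller glia and rods. Of 2 creatine genes tested, *CKMT2* and *SLC6A8*, neither was called between Müller glia and rods by edgeR, at an unadjusted p of 0.379 and 0.758, and *SLC6A8*, the creatine carrier, was higher in cones than in rods (2.42 ± 0.35, edgeR adjusted p = 0.00022), with 107 UMIs in cones of N350 and 3 in those of N354.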

How the data were processed

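The deposited matrices hold UMI counts that the authors made with Cell Ranger 6.0.2, without normalization, for droplets called as cells. The paper names canFam6 as the genome. N350 lists 34981 genes and N354 lists 19947 by another annotation, in which 4169 rows have only an identifier and 17 names occur more than once and were summed. *LDHA*, *PKM* and the other genes listed in N350 only were therefore not analysed in N354, and the planned share of *LDHA* was taken in 1 dog. Genes with near-identical processed copies, such as *GAPDH*, may share reads with them, and how such reads were counted is not given in the sources used here.

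Cells with at least 200 genes (8895 in N350 and 4387 in N354) were gated by the summed UMIs per 10000 of markers common to both lists, at least 2 of them found. Thresholds were 100 for rods and cones, 50 for Müller glia, 40 for bipolar cells, 20 for ganglion cells, microglia and vascular cells and 10 for astrocytes, horizontal and amacrine cells, and were set after the files had been seen. Cells meeting several gates (459 and 214), among them doublets, and no gate (829 and 166) were left out, and no doublet caller was used otherwise. Ganglion cells (22 and 1), microglia (12 and 4) and vascular cells (22 and 0) were too few to compare.

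UMIs were summed per dog and class. Classes with at least 50 cells in each dog (rods, cones, Müller glia and bipolar cells) entered 1 fit of edgeR 4.0.16 (R 4.3.3), by quasi-likelihood and TMM scaling, the dog as block, over genes with at least 10 UMIs, with a threshold of 0.05 on the Benjamini-Hochberg adjusted p. The dog pairs the sums, since those of a dog come from 1 animal. The deviations of a dog's classes from the class means correlated between 0.664 and 0.817 over 11532 genes. Levels have exact Poisson, shares exact binomial and ratios exact conditional 95% intervals, computed in scipy 1.17.1 under Python 3.11.15 with pandas 2.3.3 and numpy 2.4.6. UMIs were not divided by gene length, since the assay counts 3' ends.

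All members with at least 10 UMIs in each dog are named with values, and the other genes of a pathway list by the 2 highest and the 2 lowest fold changes of Müller glia over rods among those called. *SLC6A8* and *CKMT2* were named as the only creatine genes tested, and other genes named were chosen after their values were seen. The members and lists were chosen with earlier results of these data known. Alternatives were no block, DESeq2 1.42.0, total UMIs, no filter on low counts, limits on mitochondrial UMIs, doubled gate thresholds, removal of the 4% of cells with the highest Scrublet scores (scanpy 1.11.5) and each dog alone. The limit of at most 10% of UMIs on 13 mitochondrial genes and the sum without these genes were chosen after seeing the data.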

Additional observations from a re-analysis of the deposited data

How the results depend on the processing

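None of the 47 called differences of members changed sign under an alternative. Of the 37 that were not called, 16 did under an alternative with a test, in 31 values, none of them called. On total UMIs these were *PFKFB2* at -0.0048, *LDHB* at -0.22 and *PFKM* at -0.35 for Müller glia over rods, *TPI1* at -0.090, *GAPDH* at -0.18 and *PFKFB3* at -0.27 for Müller glia over cones, and *PFKL* at -0.047 for cones over rods. *PFKL* for cones over rods also came to -0.0034 without the block, -0.014 without the filter, -0.023 by Scrublet score, -0.072 with doubled gates and -0.14 at 10% mitochondrial UMIs. *BSG* in that comparison came to 0.029 by Scrublet score, 0.076 by DESeq2, 0.19 at 10% and 0.38 with doubled gates, *PDK4* to 0.089 by Scrublet score, 0.56 by DESeq2 and 0.032 with doubled gates, *SLC16A3* to 0.19 by DESeq2 and 0.22 with doubled gates, *SLC2A3* to 0.043 with doubled gates, and *PGK1* to 0.0027 at 10% and 0.056 without the block. For Müller glia over rods *PFKL* came to 0.037 by DESeq2, 0.089 at 10% and 0.24 at 5%, and *PGK1* to 0.088 at 5%. For Müller glia over cones *PFKL* came to 0.23 at 10%, and *PFKFB2* to 0.33 at 10% and 0.0057 with doubled gates. The dog as block mattered most. Without it, Müller glia over rods gave 862 genes higher and 462 lower in place of 3488 and 3125, with 2 and 2 members in place of 12 and 6. Cones over rods gave 60 and 22 in place of 1175 and 1038, with 0 and 0 members in place of 6 and 6 (3 and 2 at an unadjusted p under 0.05 by edgeR, and 7 and 2 by DESeq2 with the block). Müller glia over cones gave 606 and 401 in place of 2758 and 2373, with 2 and 0 members in place of 9 and 8 (6 and 5 at an unadjusted p under 0.05, and 9 and 7 by DESeq2 with the block). Counts of all genes at an unadjusted p under 0.05 are not given. The fit without the block counts all differences between the dogs as spread, and dog and gene list cannot be told apart there. DESeq2 gave 1996 genes lower in Müller glia and 623 lower in cones than in rods, with 2 members lower in cones. On total UMIs 4697 genes were lower in Müller glia than in rods, with 10 members, and 3694 were lower in Müller glia than in cones. When cells were kept below 5% of mitochondrial UMIs, counted on the prefix MT-, 1216 genes were lower and 7 members higher in Müller glia than in rods. N350 lists 1 such name and lost no gated cell, so that this limit acted on N354. It left 21 of 493 Müller glia and 1294 of 3003 rods there, 1 bipolar cell and no cones, so that comparisons with cones gave no value. Sums of fewer than 20 cells did not enter this fit, which thus had fewer sums than the main one. The part of this in the lost calls was not tested. The cause of the other changes was not tested. With at most 10% of UMIs on 13 mitochondrial genes, and with doubled gate thresholds or fewer cells by Scrublet score, no count moved by over 1.5 times. Leaving out a dog, the share of *HK1* ran from 78.4% to 91.6% in rods, 82.6% to 94.0% in cones and 92.2% to 98.7% in Müller glia, and the summed level from 88.7 to 112.4 in rods, 94.97 to 120.7 in cones, 111.9 to 145.1 in Müller glia and 59.8 to 87.5 in bipolar cells. Fold changes of members in 1 dog alone, which give a size and no test, were also set against those of the main fit. With N354 alone, 10 members were counted as moved for Müller glia over rods, 10 for cones over rods and 8 for Müller glia over cones. With N350 alone these were 8, 6 and 2. Depth limits *SLC16A3*, *SLC16A7*, *PYGM* and *PDK4*, with few UMIs in photoreceptors.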

Other observations

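*TKT*, the gene of transketolase in the pentose phosphate pathway, was singled out after its values were seen. It had 12.3 and 11.4 UMIs per 10000 in horizontal cells and 9.32 and 9.18 in amacrine cells of N350 and N354, against 0.418 and 0.150 in rods.

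*MDH1*, the cytosolic malate dehydrogenase of the malate-aspartate shuttle, had 19.9 and 20.2 in cones, 8.58 and 8.42 in rods and 2.23 and 2.09 in Müller glia. The level was thus higher in cones than in rods in each dog (log2 fold change 1.35 ± 0.20, edgeR adjusted p = 0.000316).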
